A study of Mus musculus with 16 samples.

Results

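The genes described are the 2 hosts of the microRNA miR-128 in the mouse genome, R3hdm1 and Arpp21, and 5 genes that have been reported as targets of miR-128: Phf6, Bmi1, E2f3, Suz12 and Wee1. They were chosen by name and matched to Ensembl identifiers, which gave 7 of the 55414 identifiers in the deposited table. RNA was measured in 16 libraries of sorted leukaemia-propagating cells (LPC), taken from bone marrow (BM) or from the central nervous system (CNS). Per the labels, every library has the disease state pro-B acute lymphoblastic leukaemia, modelled in mice after the infant form, and the genotype miR-128a overexpressing Kmt2a-AFF1+. The 4 groups, with 4 libraries each, were BM LSK, CNS LSK, BM LK and CNS LK. LSK cells were sorted as lineage-negative and positive for Sca1, cKit and IL7R, and LK cells (LK/CLP in the labels) as lineage-negative, Sca1-negative and cKit-positive. Every group carried both the fusion and the extra miR-128a, so the comparisons are between niches and between LPC types, and an effect of miR-128 itself was not analysed here. The promoter and vector that drove the microRNA, the age of the mice, and any pooling of animals are not given in the sources used here. The BM and CNS libraries of one title number and LPC type share a stem in the label that describes them, which gave 8 stems of unstated meaning. Nothing in the labels says that the libraries of a group came from separate mice, so p-values measure the spread between these libraries, which may be partly technical.

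MicroRNAs are short RNAs that guide Argonaute proteins to messenger RNAs, most often through pairing of the seed, bases 2 to 8 of the microRNA, with a site in the 3′UTR. Bound messages are destabilised or less translated. miR-128 is abundant in brain and is cut from hairpins in introns of R3hdm1 and Arpp21, so that host transcript and hairpin come from the same primary RNA. R3hdm1 and Arpp21 encode proteins with an R3H domain, a fold that binds nucleic acid, and Arpp21 is a phosphoprotein known from striatal neurons and from immature thymocytes. Among the reported targets, Phf6 encodes a chromatin protein mutated in T-cell leukaemia. Bmi1 is a subunit of Polycomb repressive complex 1, and Suz12 is a core subunit of Polycomb repressive complex 2. E2f3 is a transcription factor of the S-phase programme, and Wee1 is the kinase that holds CDK1 inactive before mitosis.

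The mature microRNA is shown because it defines the sites searched for in the targets, and both hairpins are shown because they tie it to its hosts. All come from RefSeq's annotation of GRCm38.p6, and capitals mark the seed in the mature forms and the miR-128-3p part in the hairpins.
mmu-miR-128-3p: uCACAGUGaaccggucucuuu
mmu-miR-128-1-5p: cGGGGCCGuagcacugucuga
mmu-miR-128-2-5p: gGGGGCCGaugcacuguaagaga
Mir128-1 hairpin: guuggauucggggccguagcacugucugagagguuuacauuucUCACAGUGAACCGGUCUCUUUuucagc
Mir128-2 hairpin: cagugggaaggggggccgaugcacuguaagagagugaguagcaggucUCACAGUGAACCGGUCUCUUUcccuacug

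The Mir128-1 hairpin lies at chr1:128202361-128202430 on the plus strand, inside R3hdm1 (chr1:128103301-128237736). The Mir128-2 hairpin lies at chr9:112118636-112118711 on the minus strand, inside Arpp21 (chr9:112065091-112235938). Both hairpins are on the strand of their host and overlap none of its exons in the GENCODE M21 basic annotation of GRCm38, so both are intronic. The 3p arms of the 2 hairpins are the same sequence, and among 1679 mature mouse microRNA names only miR-128-3p has that seed. The 5p arms differ in sequence and length but share their own seed.

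A match to the miR-128-3p seed was found in the longest annotated 3′UTR of 5 of 5 reported targets and of 0 of 2 hosts. The motifs searched on the transcript strand were CACTGTGA (8mer), CACTGTG (7mer-m8) and ACTGTGA (7mer-A1), and each site was counted once under its longest match. Of 20980 protein-coding genes with a 3′UTR, 26.9% held a match of any kind and 5.10% held an 8mer. Among the 9076 genes whose 3′UTR was at least 1174 nt long, the length of the shortest among the targets, the shares were 46.3% and 9.30%. The targets are known as such partly because of these sites, so their presence is a description. One site of each target, the first of its 8mer matches or, without one, of its 7mer-m8 matches, is printed as 30 bases of the transcript ending at or just after the match, which is in capitals.
Phf6: aaatgtaacaggtggaaaattaCACTGTGc
Bmi1: actgcattctgtgcagccacgtCACTGTGA
E2f3: gccagaacccattctccgaatcCACTGTGA
Suz12: cagttggagattcagaagatgcCACTGTGg
Wee1: cagccccctttgcggggtgcgcCACTGTGg

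In GRCm38 these windows are chrX:52955205-52955234 (plus strand) for Phf6, chr2:18684915-18684944 (plus) for Bmi1, chr13:29908562-29908591 (minus) for E2f3, chr11:80032969-80032998 (plus) for Suz12 and chr7:110142362-110142391 (plus) for Wee1. All 5 lie in the 3′UTR. Bmi1 held its single 8mer and no other match in 2148 nt. E2f3 held 1 8mer and 2 7mer-m8 matches in 3328 nt, and 2 of the 3 began 1283 and 1334 nt into the 3′UTR. Phf6 held 3 7mer-m8 matches in 3038 nt. Suz12 held 2 7mer-m8 matches and 1 7mer-A1 match in 1933 nt. Wee1, with the shortest 3′UTR, held 1 7mer-m8 and 1 7mer-A1 match in 1174 nt, the latter starting at base 42 of the 3′UTR. The 3′UTRs of R3hdm1 (1923 nt) and Arpp21 (2780 nt) held none of these letters. The mouse genes of the fusion partners, Kmt2a and Aff1, held 4 and 2 matches.

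**Figure D1:**
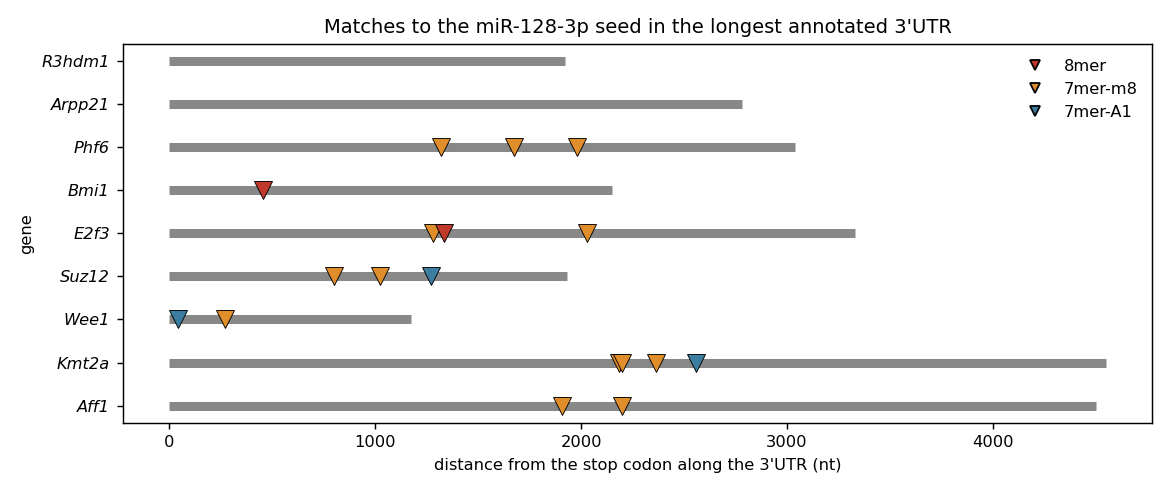
Position of every match to the miR-128-3p seed along the longest annotated 3′UTR (grey bars, nt from the stop codon) of the 7 genes and of Kmt2a and Aff1. The 8mer matches (red) are in Bmi1 and E2f3, 7mer-m8 matches are orange, 7mer-A1 matches are blue, and R3hdm1 and Arpp21 have none.

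Library depth ran from 19.2 to 29.2 M (mega) counts, and the number of identifiers with at least 1 count from 33600 to 44612 in BM and from 37148 to 46067 in CNS libraries. Within each group every pair of libraries differed beyond counting error (chi-square divided by degrees of freedom 10.6 to 41.6), so no library was treated as a repeat deposit of another. The labelled cell type was checked against its markers. Kit (2304 to 4044 counts) and Il7r (1120 to 2920), 2 of the sort antigens, were abundant in every library, whereas Ly6a, which encodes Sca1, had 11 to 50 counts. Of the pro-B genes, Rag1 (4677 to 9325 counts) and Dntt (241 to 5709) were abundant, but Vpreb1 had 1 to 9 counts, Igll1 0 to 12, Pax5 1 to 34, Ebf1 1 to 43 and Cd79a 4 to 49. These 5 defining genes of pro-B cells were therefore at or near 0 in all 16 libraries. Among T and NK genes, Cd4 (87 to 321 counts) and Cd8a (84 to 185) were measured while Cd3e had 0 to 15 and Trac 1 to 11, and the 8 genes listed for T and NK cells summed to 10.9 to 23.8 counts-per-million (CPM). The summed level of the 8 myeloid markers was 1.65 to 6.62 CPM, of 5 microglia markers 3.08 to 4.87, of 6 erythroid markers 1.94 to 3.47 and of 4 megakaryocyte markers 0.445 to 2.55. The 7 neural and glial markers summed to 33.0 to 58.5 CPM, of which Mbp, whose longer transcripts are also made in blood cells, accounted for 28.5 to 52.0.

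All 7 genes were expressed in every library, with at least 453 counts each, and all 7 passed the minimum of a mean of 10 counts. Levels are given as CPM on TMM-scaled library sizes. To compare genes with each other, CPM was divided by the length of the merged exons in kilobases. On that scale Suz12 (27.6 ± 2.00 CPM per kb, SD, n = 16) and Arpp21 (25.7 ± 2.78) were the highest, and Suz12 was above Arpp21 in 13 of 16 libraries, with overlapping ranges. R3hdm1 (13.7 ± 0.737), Wee1 (9.69 ± 1.42) and Bmi1 (6.89 ± 0.475) followed, each above the next in 16 of 16 libraries. E2f3 (5.24 ± 0.522) was above Phf6 (4.36 ± 0.414) in 14 of 16. Reads from introns of a total RNA library, if counted, would alter these values. Kmt2a (13.8 ± 0.965) and Aff1 (28.2 ± 1.27), measured over the whole mouse genes, were at levels near those of R3hdm1 and Suz12.

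R3hdm1, the host of Mir128-1, was at almost one level throughout. In LSK cells its level was 98.4, 93.8, 90.0 and 90.6 CPM in BM 1 to 4 and 96.5, 83.1, 84.5 and 93.2 in CNS 1 to 4. In LK cells it was 98.5, 97.4, 88.1 and 93.3 CPM in BM 1 to 4 and 90.9, 99.4, 88.1 and 95.1 in CNS 1 to 4. All 4 groups overlapped. Its SD of log2 CPM over the 16 libraries was 0.078, against a median of 0.168 over 11640 genes with a symbol and a mean of at least 50 counts, and 4.00% of these genes varied less. These genes were not matched to R3hdm1 in count, and counting error alone widens the SD of genes with few counts. Over both LPC types the CNS minus BM log2 change was −0.038 ± 0.047 (SE; 95% interval −0.14 to 0.061; adjusted p 0.882), and the LSK minus LK change was −0.041 ± 0.047 (−0.14 to 0.058; adjusted p 0.779).

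Arpp21, the host of Mir128-2, varied more between libraries. In LSK cells it was at 254, 228, 232 and 207 CPM in BM 1 to 4 and at 255, 209, 210.2 and 201 in CNS 1 to 4. The LK libraries had 254, 291, 228 and 238 CPM in BM 1 to 4 and 245, 258, 223 and 199.8 in CNS 1 to 4. BM LK held the highest single value, and the 4 groups overlapped. Its CNS minus BM change was −0.099 ± 0.069 (log2, SE; 95% interval −0.24 to 0.045; adjusted p 0.729), and the CNS library was the lower one in 7 of 8 stems. The LSK minus LK change was −0.11 ± 0.069 (−0.25 to 0.036; adjusted p 0.556). Per kilobase, Arpp21 was 1.83 ± 0.107 times R3hdm1 in BM LSK, 1.82 ± 0.154 in CNS LSK, 1.99 ± 0.152 in BM LK and 1.84 ± 0.196 in CNS LK (SD, n = 4), so the ratio of the hosts differed between groups by no more than about its spread within them.

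The rows of the microRNA genes themselves held few counts. Mir128-1 had 2 to 13 counts per library (mean 5.81) and Mir128-2 had 2 to 16 (mean 6.31), both under the minimum for testing. These were nevertheless above 96.3% and 96.7% of the 1124 microRNA rows, whose median mean was 0.125 counts. Reads on a hairpin in a total RNA library come mainly from primary transcripts, and mature miR-128, which such kits capture poorly, was not measured here. Every library overexpressed miR-128a per the labels, and these counts do not separate transcripts of the hosts from introduced microRNA.

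Of the chromatin genes, Suz12 was at 127, 124, 120.5 and 129 CPM in BM LSK 1 to 4 and at 131, 105, 115 and 120.4 in CNS LSK 1 to 4. LK cells had 125, 112, 127 and 133 CPM in BM 1 to 4 and 107, 114, 113 and 129 in CNS 1 to 4. CNS values spread to lower levels than BM values but overlapped them in both LPC types. The CNS minus BM change was −0.093 ± 0.054 (log2, SE; 95% interval −0.21 to 0.020; adjusted p 0.645), with the CNS library lower in 6 of 8 stems. The LSK minus LK change was 0.019 ± 0.054 (−0.095 to 0.13; adjusted p 0.929).

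Bmi1 had 25.5, 23.1, 25.3 and 25.8 CPM in BM LSK 1 to 4 and 27.8, 22.6, 23.5 and 26.3 in CNS LSK 1 to 4. In LK libraries its level was 26.1, 25.8, 26.4 and 26.9 CPM in BM 1 to 4 and 24.2, 27.5, 22.8 and 27.9 in CNS 1 to 4. The 4 BM LK values lay close together, inside the wider range of CNS LK, and the lowest of them was just above the highest BM LSK value, both 25.8 CPM when rounded. Between LSK and LK in BM the change was −0.080 ± 0.082 (log2, SE; adjusted p 0.929). The CNS minus BM change was −0.013 ± 0.058 (log2, SE; 95% interval −0.14 to 0.11; adjusted p 0.983), and the CNS library was lower in 4 of 8 stems. The LSK minus LK change was −0.056 ± 0.058 (−0.18 to 0.067; adjusted p 0.752).

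Phf6 had 28.5, 28.2, 30.1 and 34.9 CPM in BM LSK 1 to 4 and 26.9, 25.7, 27.4 and 32.4 in CNS LSK 1 to 4. In LK cells it had 30.4, 29.7, 29.7 and 32.5 CPM in BM 1 to 4 and 29.0, 29.7, 26.3 and 35.4 in CNS 1 to 4. The library with title number 4 was the highest in 4 of 4 groups. Number 4 was also the highest in 3 of 4 groups for Bmi1 and Suz12, and the lowest in 3 of 4 for Arpp21. What the title numbers share is not given in the labels. The CNS minus BM change of Phf6 was −0.069 ± 0.068 (log2, SE; 95% interval −0.21 to 0.073; adjusted p 0.825), with the CNS library lower in 7 of 8 stems. The LSK minus LK change was −0.053 ± 0.068 (−0.20 to 0.089; adjusted p 0.804).

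E2f3 had 31.0, 28.7, 32.3 and 26.9 CPM in BM LSK 1 to 4 and 29.9, 24.8, 28.3 and 29.6 in CNS LSK 1 to 4. LK libraries had 25.3, 31.7, 28.2 and 26.6 CPM in BM 1 to 4 and 25.3, 32.0, 25.6 and 23.5 in CNS 1 to 4. No group stood apart. The CNS minus BM change was −0.075 ± 0.070 (log2, SE; 95% interval −0.22 to 0.073; adjusted p 0.818), and the LSK minus LK change was 0.086 ± 0.070 (−0.061 to 0.23; adjusted p 0.664).

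Wee1 showed the largest difference of the 7 genes, between LPC types. In LSK cells it was at 40.6, 34.2, 38.0 and 30.0 CPM in BM 1 to 4 and at 45.1, 32.6, 36.6 and 32.6 in CNS 1 to 4. In LK cells it was at 29.8, 31.2, 30.4 and 30.8 CPM in BM 1 to 4 and at 25.1, 31.5, 30.5 and 30.9 in CNS 1 to 4. Of the 8 LSK libraries, 7 lay above every LK library, and BM LSK 4 lay among them, so that the LSK and LK groups overlapped in BM and not in the CNS. The LSK minus LK change over both niches was 0.27 ± 0.076 (log2, SE), a fold of 1.21 (95% interval 1.08 to 1.35), with an unadjusted p of 0.00209 and an adjusted p of 0.154. It was 0.22 ± 0.107 in BM (adjusted p 0.776) and 0.31 ± 0.107 in the CNS (adjusted p 0.703). How many other tested genes had LSK and LK groups that did not overlap was not counted. In the contrast over both niches, 12.1% of all tested genes had an edgeR unadjusted p under 0.05. Between niches the change of Wee1 was −0.0018 ± 0.076 (95% interval −0.16 to 0.16; adjusted p 0.999), with the CNS library lower in 3 of 8 stems. The interaction of niche and LPC type was 0.090 ± 0.151 (adjusted p 1.00).

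**Figure D2:**
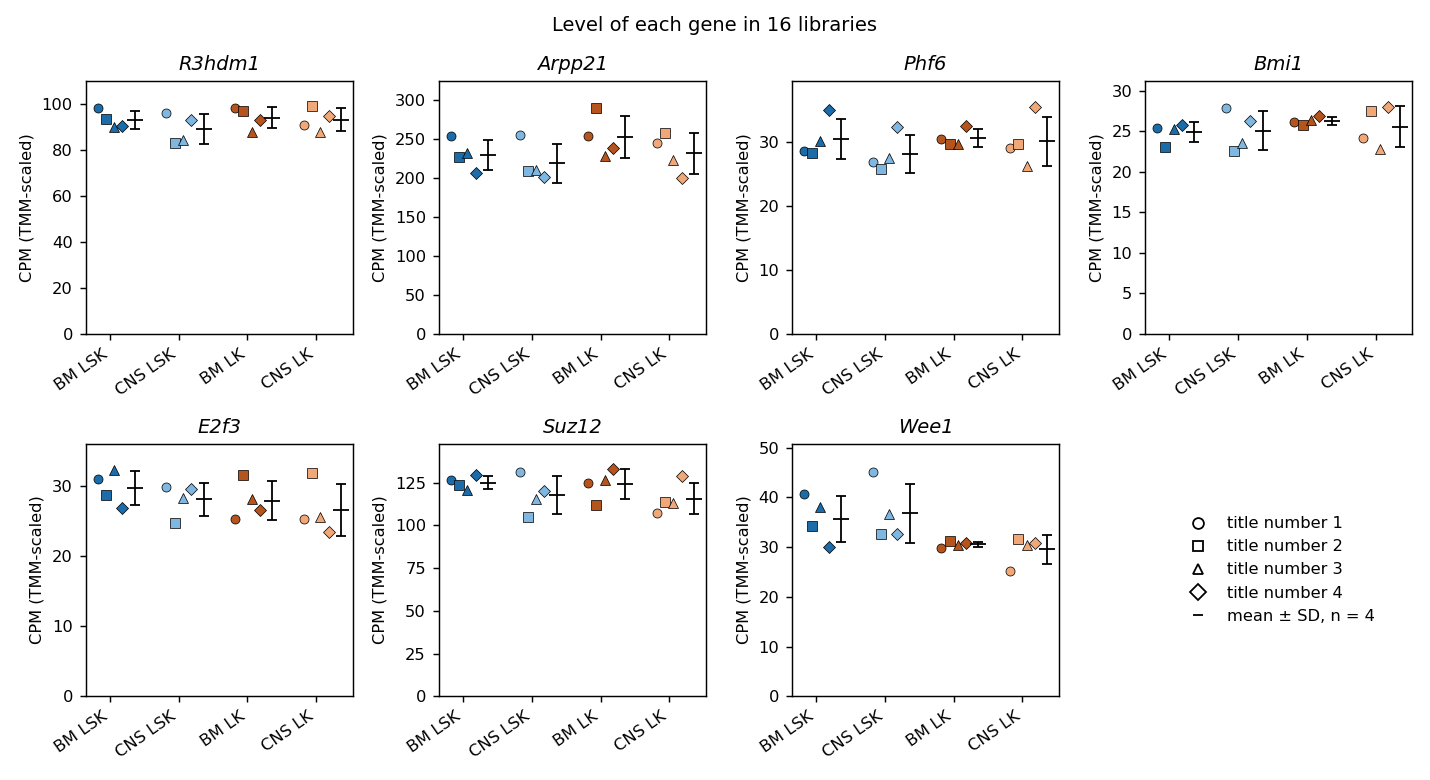
Level of the 2 hosts and 5 reported targets in each library (TMM-scaled CPM, axes from 0), by group, with a marker for each title number and the mean ± SD of the 4 libraries beside them. For Wee1, 7 of 8 LSK libraries lie above all LK libraries, and the other groups overlap except for Bmi1 in BM LSK and BM LK, which meet at 25.8 CPM. Such separations were not counted over all tested genes.

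The question set by the design was whether these genes differ by niche or by LPC type. By edgeR's quasi-likelihood test, 0 of the 7 passed an adjusted p of 0.05 between CNS and BM over both LPC types, where 0% of the 18878 tested genes passed. The same held in LSK cells (0% of all genes), in LK cells (0%), between LSK and LK in BM (0%) and in the CNS (0%), and for the interaction (0%). Between LSK and LK over both niches 0 of the 7 passed, and 0.238% of all genes did (45, of which 43 were higher in LSK). At an unadjusted p under 0.05, 0 of the 7 passed between niches, against 9.15% of all genes, and 1 of the 7 (Wee1) passed between LPC types, against 12.1%. Within one LPC type 0 of the 7 did so between niches (5.74% of all genes in LSK and 3.99% in LK). Between LPC types Wee1 alone did so in BM (edgeR unadjusted p 0.0494, against 6.38% of all genes). In the CNS it was also Wee1 alone (edgeR unadjusted p 0.00853, against 6.58%). The BM result was lost under several alternatives, given at the end. For the interaction the count was 0 of the 7, against 1.49%. With the stem as a block in the edgeR fit, 0 of the 7 passed an adjusted p of 0.05 between niches, where 126 genes over both LPC types (0.667%), 26 in LSK (0.138%) and 12 in LK cells (0.0636%) did. At an unadjusted p under 0.05 in that fit, 2 of the 7 passed over both types, against 13.4% of all genes: Arpp21 (−0.10, edgeR unadjusted p 0.0212, adjusted p 0.279) and Suz12 (−0.095, unadjusted p 0.0360, adjusted p 0.340). In LK cells Arpp21 alone did so (−0.13, unadjusted p 0.0376, adjusted p 0.766; 6.26% of all genes), and in LSK cells 0 of the 7 (10%). DESeq2 also called 0 of the 7 in each of the 7 contrasts, and limma on log2(CPM + 1) called 0 in both contrasts it was run on. Over both LPC types the 95% intervals between niches leave fold changes of 0.845 to 1.11 possible, from the lowest bound, of Arpp21, to the highest, of Wee1. Within a single LPC type the bounds are wider, from 0.795 for Arpp21 in LK cells to 1.20 for Wee1 in LSK cells.

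The sign of the CNS minus BM change was negative for 7 of the 7 genes, with a median of −0.069 on the log2 scale. Of all tested genes 50% had a negative sign, but among the 4415 genes with a mean count at least that of the lowest of the 7 genes the share was 71.5% and their median change −0.030. Identifiers with a count also ran to higher numbers in CNS than in BM libraries, and the bearing of this on the sign was not tested. Between LPC types, 4 were lower and 3 higher in LSK cells, with a median of −0.041. Of all tested genes 53.2% were lower in LSK, and of the 4415 genes 61.5%. These shares are also the background for the signs counted in the gene lists below, which were not matched for count.

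**Figure D3:**
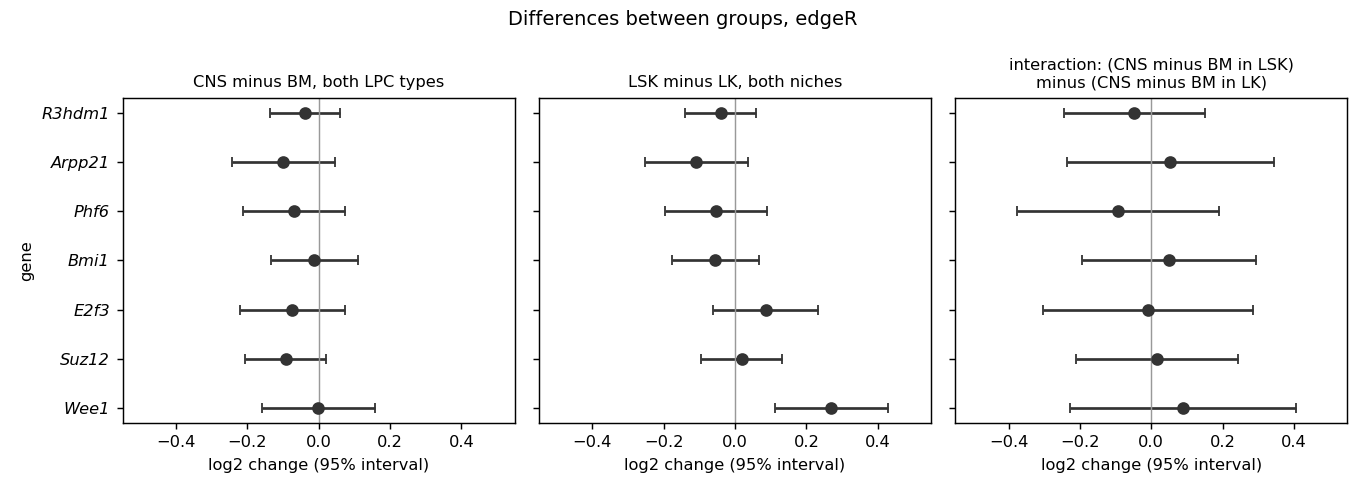
Log2 change of each gene with its 95% interval from edgeR, CNS minus BM over both LPC types (left), LSK minus LK over both niches (middle) and their interaction (right). Each interval crosses 0 except that of Wee1 between LSK and LK, 0.11 to 0.43, whose adjusted p is 0.154.

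Wee1 acts on a switch at the entry to mitosis: WEE1 and PKMYT1 phosphorylate and hold back CDK1, the CDC25 phosphatases release it, cyclins A and B activate it, PLK1 feeds forward, and ATR, CHEK1 and CHEK2 restrain it after DNA damage. Of the 15 genes listed for this switch 14 were tested, and 4 of them rose in LSK against LK over both niches, while 0 fell. The list was drawn up with earlier results of these data known and is not independent evidence of direction. The BM and CNS libraries of a stem are counted as separate in that contrast, so its p-values may be too small. The share of all tested genes called higher in that contrast was 0.228%. The median change of the list was 0.30 on the log2 scale against −0.011 for all genes tested, and 13 of 14 had a positive sign. Ccnb1, cyclin B1, rose by 0.59 ± 0.097 (log2, SE; adjusted p 0.0117), Plk1 by 0.54 ± 0.101 (adjusted p 0.0299), Cdk1 by 0.51 ± 0.088 (adjusted p 0.0160) and Cdc25b by 0.33 ± 0.059 (adjusted p 0.0187).

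Ccnb1 was at 47.3, 34.2, 42.6 and 38.1 CPM in BM LSK 1 to 4 and at 49.5, 34.1, 46.2 and 40.9 in CNS LSK 1 to 4, against 24.3, 26.9, 24.7 and 28.0 in BM LK 1 to 4 and 28.7, 29.5, 21.8 and 37.1 in CNS LK 1 to 4. CNS LK 4 was the one LK library inside the LSK range. Cdk1, the kinase itself, was at 56.8, 44.4, 53.0 and 44.0 CPM in BM LSK 1 to 4 and at 53.0, 39.0, 55.8 and 47.8 in CNS LSK 1 to 4, against 30.6, 29.9, 39.7 and 30.1 in BM LK 1 to 4 and 32.2, 39.4, 33.2 and 42.4 in CNS LK 1 to 4. CNS LSK 2 was the lowest LSK library for both genes and for Plk1 and Cdc25b. The calls depended on single libraries: 4 genes of the list were called with all libraries, and 2 without BM LSK 1, CNS LSK 1, CNS LSK 3, BM LK 1 or CNS LK 2 in turn, 1 without CNS LK 3, 3 without BM LK 4, 5 without BM LSK 2 or CNS LK 4 in turn, and 6 without CNS LSK 2. Ccnb1 passed in all 16 fits that left out 1 library. Over the 22 alternatives run on this contrast, which for this list were added after the data were seen, the log2 change ran from 0.53 to 0.66 for Ccnb1, 0.48 to 0.61 for Plk1, 0.45 to 0.56 for Cdk1 and 0.27 to 0.37 for Cdc25b.

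The T and NK and the pro-B marker lists also had positive medians in this contrast. So did the lists for myeloid cells (0.37), megakaryocytes (0.27), neural and glial cells (0.13), sort antigens (0.054) and microglia (0.0053). The erythroid list had a negative median (−0.20). For the T and NK genes, 4 of 8 were tested, with a median of 0.35, 3 with a positive sign, 3 at an unadjusted p under 0.05 (Cd8a among them with a negative sign) and 0 past the adjusted threshold. For the pro-B genes, 5 of 8 were tested, with a median of 0.48, 4 with a positive sign, 1 at an unadjusted p under 0.05 and 0 past the adjusted threshold. Among these 5 were Pax5 (1 to 34 counts), Ebf1 (1 to 43) and Cd79a (4 to 49), all at or near 0. The summed T and NK level was 13.2 to 19.9 CPM in LSK and 10.9 to 23.8 in LK libraries, and the summed pro-B level 255 to 567 and 264 to 437. Their part in the result was not tested.

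Cdc25c (0.53, adjusted p 0.0940), Ccna2 (0.42, adjusted p 0.0860) and Ccnb2 (0.36, adjusted p 0.123) had values above that of Wee1 and did not pass. Ccna2 and Cdc25c passed under 3 of the 6 alternatives that kept every library, added for this list after the data were seen, with 6 genes of the list called in each. Their adjusted p was 0.00251 and 0.0326 in edgeR with the replicate block, 0.0248 and 0.0250 in DESeq2, and 0.00486 and 0.0102 in edgeR with no minimum count. Pkmyt1, the other inhibitory kinase, had a change of 0.072 ± 0.10 (adjusted p 0.824), Cdc25a −0.055 ± 0.049 (adjusted p 0.697) and Chek1 0.032 ± 0.071 (adjusted p 0.900). Between niches 0 of the 14 passed, with a median of 0.035, and Cdc25b had the smallest unadjusted p (0.17 ± 0.059; unadjusted p 0.00933, adjusted p 0.394). Ly6a, the gene of the antigen by which LSK cells were sorted, was higher in LSK by 1.30 ± 0.214 (adjusted p 0.0117).

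**Figure D4:**
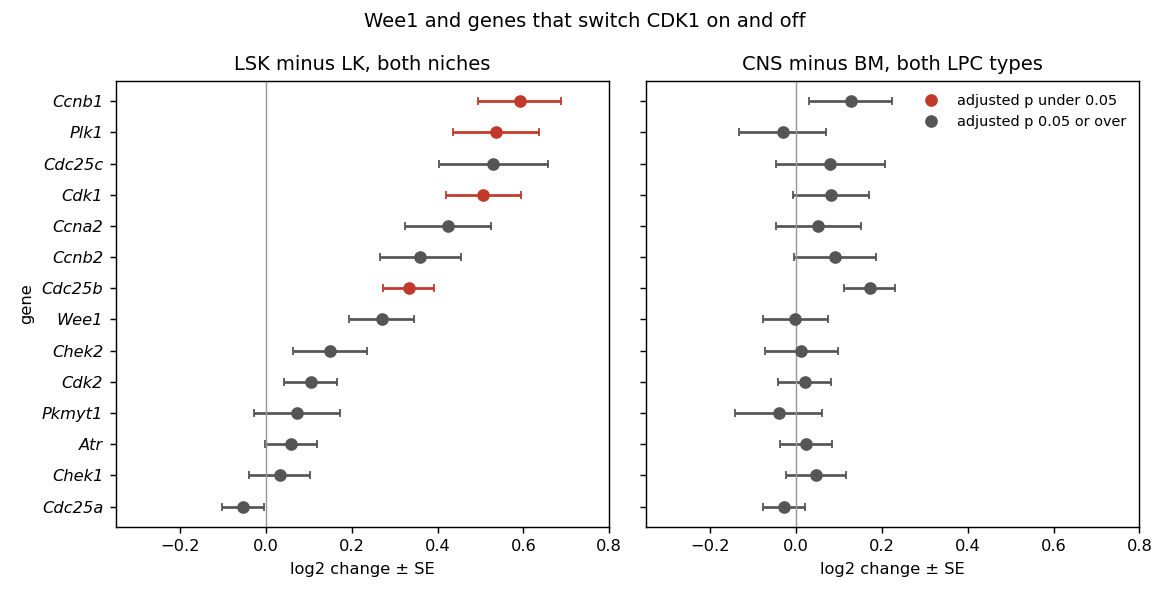
Log2 change ± SE of the 14 tested genes around Wee1 and CDK1 (edgeR), LSK minus LK over both niches (left) and CNS minus BM over both LPC types (right), with genes past an adjusted p of 0.05 in red. Ccnb1, Plk1, Cdk1 and Cdc25b pass on the left, Wee1 at 0.27 does not, and none passes on the right.

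The other complexes around the 5 targets held 0 genes past the threshold in each of the 7 contrasts. For the 20 Polycomb repressive complex 1 genes around Bmi1, the median change was −0.014 between niches (7 higher, 13 lower by sign) and −0.021 between LPC types (3 at an unadjusted p under 0.05). Cbx8, a chromobox reader subunit, had a niche change of −0.16 ± 0.082 (adjusted p 0.589). Between LPC types the smallest p belonged to Phc3, a Polyhomeotic subunit (−0.17 ± 0.057, adjusted p 0.234), and L3mbtl2 (0.14 ± 0.051, adjusted p 0.263). Of the locus that BMI1 is best known to repress, Cdkn2a and Cdkn2b had 0 to 10 counts and were not tested. Cdkn1a, a cell cycle inhibitor listed with them, had 2.35 ± 1.94 CPM in BM LSK, 1.04 ± 0.71 in CNS LSK, 1.58 ± 1.54 in BM LK and 0.435 ± 0.293 in CNS LK (SD, n = 4), with a niche change of −1.50 ± 0.55 (unadjusted p 0.0137, adjusted p 0.429). Its groups overlapped.

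For the 12 Polycomb repressive complex 2 genes around Suz12, the medians were −0.040 between niches (1 at an unadjusted p under 0.05) and −0.016 between LPC types (1). Ezh2, the methyltransferase that needs SUZ12 for its activity, was at 143 ± 7.03 CPM in BM LSK, 135 ± 8.81 in CNS LSK, 126 ± 2.22 in BM LK and 128 ± 6.98 in CNS LK (SD, n = 4). The BM LSK and BM LK groups did not overlap, a separation that was not counted over all tested genes. The LSK minus LK change of Ezh2 over both niches was 0.14 ± 0.045 (adjusted p 0.234). Jarid2, an accessory subunit, was next in that contrast (−0.14 ± 0.080, adjusted p 0.512). Phf19, an accessory subunit at 1.13 to 1.77 mean CPM, had the smallest p between niches (−0.52 ± 0.233, adjusted p 0.520).

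For the 13 E2F and pocket protein genes the medians were −0.075 between niches, with 11 lower by sign, and 0.025 between LPC types, with 2 at an unadjusted p under 0.05 in each. Tfdp1, a dimer partner of E2F proteins (−0.10 ± 0.047, adjusted p 0.527), and Rb1, their repressor (−0.17 ± 0.081, adjusted p 0.544), had the smallest p between niches. Between LPC types these were Tfdp2 (−0.17 ± 0.070, adjusted p 0.332) and the repressor E2f7 (0.38 ± 0.160, adjusted p 0.362). A list of 14 genes held Phf6 itself and subunits of the NuRD complex, which binds PHF6. Their medians were −0.069 between niches and −0.021 between LPC types, and 0 had an unadjusted p under 0.05 in either contrast. Mta2 (−0.095 ± 0.053, adjusted p 0.625) and Hdac1 (−0.084 ± 0.048, adjusted p 0.637) came first between niches, and Mbd3 (0.070 ± 0.046, adjusted p 0.578) and Gatad2b (−0.071 ± 0.049, adjusted p 0.594) between LPC types.

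Around the hosts, 0 genes passed in each of the 7 contrasts either. The 7 tested genes with an R3H domain, the hosts included, had medians of −0.064 between niches and −0.038 between LPC types, with 0 at an unadjusted p under 0.05. R3hdm2, a paralog of R3hdm1, was at 55.9 to 61.0 mean CPM in the 4 groups (niche change −0.078 ± 0.046, adjusted p 0.654), and R3hcc1l had an LSK minus LK change of −0.10 ± 0.067 (adjusted p 0.570). The 8 genes near R3hdm1 had medians of 0.016 and 0.013. Mcm6, a subunit of the replicative helicase, had a niche change of −0.093 ± 0.054 (adjusted p 0.643), Cxcr4, the receptor for CXCL12, −0.16 ± 0.10 (adjusted p 0.664), and Lct an LSK minus LK change of 0.29 ± 0.235 (adjusted p 0.661). The 4 tested genes near Arpp21 had medians of −0.060 in both contrasts, with Fbxl2 (0.29 ± 0.173, adjusted p 0.653) and Pdcd6ip (−0.063 ± 0.046, adjusted p 0.745) first between niches. Of the 13 genes that make or use microRNAs, 11 were lower by sign in the CNS (median −0.029; 0 at an unadjusted p under 0.05) and 10 in LSK (median −0.042; 2 at an unadjusted p under 0.05). Of the 4415 genes with counts like those of the 7, 71.5% were lower in the CNS and 61.5% in LSK. Among the 13, Dicer1, which cuts hairpins to the mature length, had a niche change of −0.075 ± 0.042 (adjusted p 0.629). Prkra, a partner of Dicer, had a niche change of 0.26 ± 0.130 (adjusted p 0.564), and the silencing scaffold Tnrc6b had an LSK minus LK change of −0.10 ± 0.046 (adjusted p 0.397).

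Of 22 further genes reported as miR-128 targets, 18 were tested and 0 passed in any of the 7 contrasts. Between niches their median change was 0.11 against 0.00 for all genes tested (−4.3e-07 before rounding), with 11 higher and 7 lower by sign and 5 at an unadjusted p under 0.05. Of the 8 myeloid markers 4 were tested between niches, with a median change of 0.57, 4 of 4 positive, 2 at an unadjusted p under 0.05 and 0 past the adjusted threshold. Their mean summed level was 2.66 CPM in BM LSK, 4.20 in CNS LSK, 2.26 in BM LK and 3.65 in CNS LK. For the pro-B list 5 of 8 were tested, with a median of 0.46, 4 positive, 2 at an unadjusted p under 0.05 and 0 past the adjusted threshold. Medians were 0.21 for megakaryocytes, 0.15 for microglia, 0.12 for T and NK, 0.083 for neural and glial, 0.0020 for sort antigens and −0.14 for erythroid markers. The part of the marker genes in the values of these targets was not tested. Abcg1, a cholesterol exporter, was at 33.8 ± 9.81 CPM in BM LSK, 45.3 ± 9.69 in CNS LSK, 38.0 ± 2.31 in BM LK and 56.9 ± 14.3 in CNS LK (SD, n = 4), with overlapping groups, a niche change of 0.50 ± 0.131 and an adjusted p of 0.312. Egfr, a growth factor receptor at 0.354 to 1.32 mean CPM, had a change of 1.31 ± 0.392 (adjusted p 0.356). Between LPC types Rxra, a nuclear receptor (0.87 ± 0.291, adjusted p 0.237), and Reln (0.60 ± 0.224, adjusted p 0.289) had the smallest p, both at low levels. Kmt2a had a niche change of −0.047 ± 0.055 (adjusted p 0.868) and an LPC type change of −0.043 ± 0.055 (adjusted p 0.803). Aff1 had 0.011 ± 0.045 (adjusted p 0.982) and −0.021 ± 0.045 (adjusted p 0.894).

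Genes were also described by whether their 3′UTR held a match to the miR-128-3p seed, leaving out the 7. Between niches the median change was 0.014 for 818 tested genes with an 8mer, 0.0048 for 3238 with a 7mer only and −0.0045 for 8969 with none. Between LPC types the medians were 0.0047, −0.0013 and −0.0063. The classes differed in 3′UTR length, with medians of 2557, 2261 and 850 nt, and the part of length in these differences was not tested.

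The genes whose log2 CPM most resembled each of the 7 over the 16 libraries, among 11639 with a mean of at least 50 counts, are given as a description, since all values share libraries and depth. Wee1 was most like Mastl, the Greatwall kinase of mitotic entry (Pearson's r 0.935), and Cdca8, a subunit of the chromosomal passenger complex (0.889). Mastl was at 17.7, 14.8, 17.1 and 12.9 CPM in BM LSK 1 to 4 and at 18.9, 13.2, 16.5 and 13.1 in CNS LSK 1 to 4, against 9.82 to 13.8 in the LK libraries, so BM LSK 4 was again the lowest LSK library. Phf6 was most like Gdi2 (0.923) and Sin3a (0.901), E2f3 like Paf1 (0.920) and Rbmx2 (0.882), and Arpp21 like Cep295nl (0.917) and Gm26577 (0.895). Suz12 was most like Vps35 (0.863) and Pcna (0.857), R3hdm1 like Phf20l1 (0.850) and Hnrnpdl (0.835), and Bmi1 like Slf1 (0.836) and Rttn (0.827). The spread over the 16 libraries, as SD of log2 CPM, was 0.101 for Bmi1, 0.106 for Suz12, 0.134 for Phf6, 0.144 for E2f3, 0.154 for Arpp21 and 0.202 for Wee1, the one gene of the 7 above the median of 0.168. That median was not matched for count.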

How the data were processed

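RNA was measured in 16 bulk libraries, made with a stranded low-input total RNA kit per the labels' protocols. The deposited table holds whole-number counts per Ensembl identifier. The word normalised in its name does not match the values: totals differ between libraries, and median-of-ratios size factors span 0.804 to 1.302. They were used as raw counts. Per the submitters' processing notes, the genome build was GRCm39 and DESeq2 was used, with no role stated. The aligner, counter, annotation and any use of strand or molecular identifiers are not given in the sources used here, so overlapping genes and near-identical copies are uncertain. The table gives no coordinates, and those printed are of GRCm38. Symbols matched 52081 of 55414 identifiers; the 3333 others held 41.8% of counts and stayed in the library sizes, and 0 per-sample columns were unused.

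Identifiers averaging at least 10 counts per library (18878) were fitted in edgeR 4.0.16 (R 4.3.3) with TMM factors as 4 group means, and 7 contrasts were tested two-sided with Benjamini-Hochberg adjustment over all tested genes at 0.05. The method was tested on simulated data. CPM per kb uses merged exons of the GENCODE M21 basic annotation. The alternatives were median-of-ratios scaling (RLE), no minimum count, DESeq2 1.42.0, identifiers with a symbol only, limma 3.58.1 on log2(CPM + 1), a replicate block, and leaving out each library.

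The 7 genes and the gene lists were chosen with earlier results of these data known. From each list the text names up to 4 genes past the threshold, otherwise the 2 with the smallest p between niches and the 2 between LPC types, plus Kmt2a and Aff1. Further genes named are those of the switch around Wee1 that did not pass, Mastl among the most similar genes, and the marker genes. The values of some genes of the lists are not reported here.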

Additional observations from a re-analysis of the deposited data

Results flagged for a closer look

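In 2 of the 28 combinations of gene and group, 1 library of the 4 stood apart from the other 3. Each gap only just exceeded Dixon's 95% critical value of 0.829 of the group's range, and chance gives about 1.4 of 28. For Arpp21 the library that stood apart was CNS LSK 1 with 255 CPM, while the other 3 had 201 to 210.2. For Wee1 it was CNS LK 1 with 25.1 CPM, while the other 3 had 30.5 to 31.5. CNS LSK 1 was also the highest of the 16 libraries for Wee1. Without CNS LK 1, the LSK minus LK change of Wee1 over both niches was 0.23 on the log2 scale (edgeR adjusted p 0.263) in place of 0.27, and without CNS LSK 1 it was 0.21 (edgeR adjusted p 0.264). The cause of neither value was tested.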

How the results depend on the processing

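The count of 0 of 7 genes past the threshold held in each of the 7 contrasts under every alternative run on it (22 for the contrasts pooled over types or niches, 21 for the other 5, where limma was not run), with a smallest adjusted p of 0.0936 over 1043 tests, for Wee1 between LSK and LK without BM LSK 4. For that contrast the adjusted p of Wee1 ran from 0.0936 to 0.344. The signs of the small changes were not stable: 58 of the 1043 tests reversed a sign, in 19 of 49 results, and the cause was not tested.

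Over all genes, the count called between niches over both LPC types was 0, and became 85 with no minimum count and 28 in DESeq2; in LSK cells it became 10 and in LK cells 14 with no minimum. Between LPC types over both niches it was 45, and became 290 with no minimum, 195 in DESeq2 and 15 to 138 when 1 library was left out. In BM it was 0, and became 48, 32 in DESeq2 and 0 to 2; in the CNS it was 0, and became 38, 4 in DESeq2 and 0 to 3. Of the genes around Wee1 and CDK1, 1 to 6 were called with 1 library left out (alternatives added after the data were seen).

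A replicate block was fitted with the stem for niche contrasts and the title number for LPC contrasts. Every stem lies within a single LPC type, so LSK against LK over both niches counts the BM and CNS libraries of a stem as separate. Neither the title-number block nor leaving out a library allows for this. The p-values of that contrast, those of Wee1 and the CDK1 switch included, may be too small. Over genes averaging 10 counts or more, deviations from the group means correlated above 0.1 within 5 of 8 stems (−0.074 to 0.294). Over genes averaging 50 or more this was 8 of 8 (0.336 to 0.616), so the outcome of this check depended on the minimum, the meaning of a stem is unstated, and both fits are given. With the block, 126, 26 and 12 genes were called between niches (both types, LSK, LK) and 162 between LPC types, and 0 of the 7. At an unadjusted p under 0.05 the block gave 2 of the 7 between niches over both types and 1 in LK, against 0 and 0 in the same fit without it. With the block Arpp21 between niches was −0.10 (edgeR adjusted p 0.279) and Suz12 −0.095 (0.340). Alternatives without the block also moved this count over both types. It was 2 with no minimum count, 1 in DESeq2, 2 without CNS LSK 1 and 1 without CNS LK 4. Between LPC types in BM the count was 1 in the main fit. There it became 0 with no minimum count, in DESeq2, with the block and in most fits that left out 1 library. Between LPC types in the CNS it was 1, and became 0 without CNS LSK 1.

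With no minimum count, Bmi1 (−0.057) and Wee1 (−0.026) reversed between niches in LSK, and Suz12 between LPC types (−0.040 over both niches, −0.039 in BM, −0.041 in the CNS) and in the interaction (−0.0019). Under that setting the LSK minus LK change over both niches was lower for every tested gene around Wee1 and CDK1. It was 0.53 in place of 0.59 for Ccnb1 and 0.21 in place of 0.27 for Wee1. In DESeq2, Bmi1 in LSK (−0.022) and Suz12 in BM (−0.0027) reversed, and on identifiers with a symbol Phf6 between LPC types in BM (0.0071).

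Leaving out 1 library in turn moved log2 changes over these ranges. Between niches over both types: Bmi1 −0.039 to 0.013, Wee1 −0.058 to 0.032. In LSK: Bmi1 −0.041 to 0.054, Wee1 −0.070 to 0.11. In LK: R3hdm1 −0.047 to 0.013, Phf6 −0.11 to 0.038, Bmi1 −0.083 to 0.015, Wee1 −0.080 to 0.021. Between LPC types over both niches: Suz12 −0.0078 to 0.049. In BM: R3hdm1 −0.049 to 0.0038, Phf6 −0.080 to 0.029, Suz12 −0.031 to 0.044. In the CNS: Bmi1 −0.083 to 0.022, Suz12 −0.027 to 0.085. For the interaction: Arpp21 −0.027 to 0.11, Bmi1 −0.0039 to 0.099, E2f3 −0.065 to 0.092, Suz12 −0.038 to 0.074, Wee1 −0.024 to 0.16. With 4 libraries a group, changes of the size seen were within the intervals printed, and a p that misses the threshold does not show that levels were equal.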
